A study of Mus musculus with 24 samples.

Results

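Loss of the phospholipid-remodelling enzyme LPCAT3 changed gene expression in inguinal white adipose tissue (iWAT, the subcutaneous fat depot of the mouse groin) by different amounts on an omega-3 and on an omega-6 diet, and the subject here is that difference. For each gene it was computed as the knockout-minus-wild-type difference on the omega-3 diet minus the knockout-minus-wild-type difference on the omega-6 diet. A negative value therefore means that the gene stood less high, or lower, in the knockout on omega-3 than on omega-6, and a positive value means the reverse. All 16 libraries of the 4 groups concerned were used, out of 24 in the series, and 15259 of the 35727 genes in the count table had enough reads to be tested.

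The 4 groups were WT on the omega-6 diet (n6), KO on n6, WT on the omega-3 diet (n3) and KO on n3, with 4 libraries in each. The KO mice are called AdL3KO in the series, and neither the labels nor the design text give the promoter or Cre behind the deletion, the allele or the strain. All mice were male and 18 to 22 weeks old, and all diets gave 60% of calories from fat. The labels number the replicates without saying that each is a separate animal, so the p-values measure only the spread between these libraries.

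LPCAT3 sits in the endoplasmic reticulum and attaches polyunsaturated fatty acids, arachidonic acid above all, to lysophospholipids. The composition of that membrane bears on the release of SREBP-1 and SREBP-2, the transcription factors that drive genes of fatty acid synthesis and of sterol synthesis, and INSIG1 holds their escort protein SCAP in the endoplasmic reticulum. Omega-3 and omega-6 fatty acids are the families of polyunsaturated fatty acids that mammals take from the diet, and both are substrates for membrane phospholipids.

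The 16 libraries held 43599424 to 62128983 estimated counts, and libraries of 1 group correlated at 0.986 to 0.993 over log2 CPM, the counts of a gene scaled to a common library total. RNA came from whole tissue, and fewer cells of a type cannot be told apart from less RNA per cell. Markers of adipocytes were abundant in every library, with a summed level of 23369 to 31959 CPM over 10 genes. KO n6 replicate 1 carried skeletal muscle transcripts at a summed 467 CPM, against 25.3 to 65.2 in the other KO n6 libraries. KO n6 replicate 2 carried B cell transcripts at 61.7 CPM, against 7.32 to 12.3 in the others. KO n3 replicate 4 had endothelial markers at 1712 CPM, against 1214 to 1298 in the other KO n3 libraries. Gland epithelium markers, at a summed 4.45 to 5.30 CPM in WT n3, stood at 5.65 to 13.1 in KO n3. Counts are therefore also given without the first pair of libraries and a B-cell-rich WT library on saturated fat, a fit that leaves KO n6 with 2 of its 4, and without KO n3 replicate 4 where that matters.

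**Figure D1:**
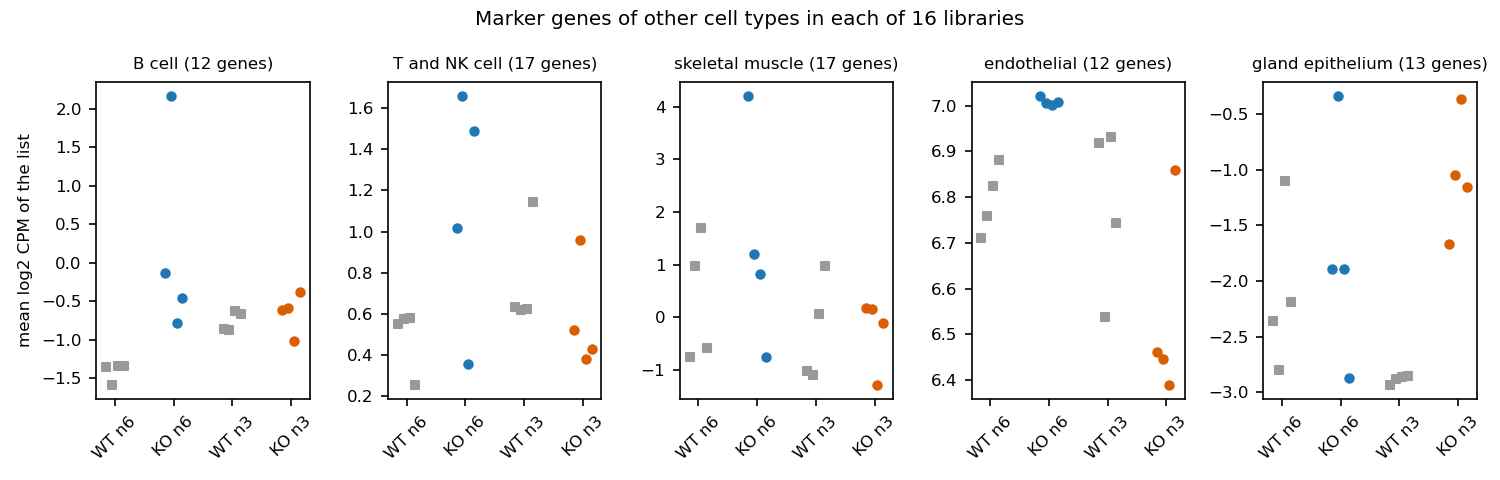
Mean log2 CPM of marker genes of 5 other cell types (vertical axis, with the number of genes in each title) in each of the 16 libraries (points) by group. KO n6 replicate 2 is the highest point of the B cell panel, KO n6 replicate 1 that of the muscle panel, and in the gland epithelium panel all 4 KO n3 libraries lie above all 4 WT n3 libraries.

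The targeted gene itself differed between diets. Lpcat3 (chr6:124663027-124704418, plus strand, GRCm38) stood at 69.9, 69.4, 72.9 and 66.0 CPM in WT n6 and at 50.1, 47.7, 49.1 and 49.2 in KO n6. On n3 it stood at 114, 113, 119 and 112 CPM in WT and at 58.9, 53.7, 61.3 and 59.0 in KO. Every KO library was below every WT library of its diet, and the KO-minus-WT log2 difference was -0.51 on n6 and -0.97 on n3. The difference of differences was -0.47 (SE 0.0863, edgeR quasi-likelihood test, adjusted p = 0.00356). It came with a rise in WT of 0.72 from n6 to n3 and of 0.25 in KO, both called. In the authors' TPM, transcript abundances that divide by transcript length, the n6 groups overlapped: WT had 68.3, 68.8, 76.5 and 64.4 TPM and KO 71.2, 70.8, 76.1 and 79.1. There the KO-minus-WT difference of log2(TPM + 1) was 0.10 on n6 and -0.35 on n3, so its direction on n6 turned while the difference between diets, -0.45, held its sign. The counts by gene do not show which exons were read, so the deleted part itself was not checked.

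Changes below are log2 fold changes relative to the bulk of tested genes. This matters for the sign of a genotype or diet effect, and less for the median of the difference between diets. On log2(TPM + 1) the median of all genes was -0.16 for KO minus WT on n6 and -0.19 on n3, while for the difference of differences it was -0.0049. The split of calls in the difference of differences did move, to 487 higher and 373 lower on log2(TPM + 1), against 684 and 705 on counts.

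The effect of the knockout depended on the diet for 1389 genes, 9.1% of those tested, at an adjusted p below 0.05. Of these, 684 (4.48%) were higher in the difference of differences and 705 (4.62%) lower. The median size among the 1389 was 0.37 on the log2 scale and 126 differed by 2-fold or more. At an unadjusted p below 0.05 there were 3992. For comparison, KO differed from WT at 6571 genes on n6 (43.1%; 3206 or 21% higher and 3365 or 22.1% lower) and at 5924 on n3 (38.8%; 3065 or 20.1% higher and 2859 or 18.7% lower). On the TPM scale the n6 split was 1176 higher and 6797 lower, and the n3 split 908 and 7463. Without the muscle-rich and B-cell-rich libraries 570 genes were called, 516 of them among the 1389. Without KO n3 replicate 4 there were 2693, and leaving out any other single library of the 16 gave 730 to 1759. With B cell and muscle marker levels as covariates there were 438, and 103 with gland levels added.

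Grouped by the sign and size of the knockout effect on each diet, the 1389 genes fell into a few patterns. In 189 genes the level was higher in KO on both diets and more so on n6, and in 319 it was lower on both and more so on n6. In 495 it was higher in KO on n6 and lower on n3, and in 307 the reverse. A further 58 were higher on both and more so on n3, and 21 lower on both and more so on n3. Of all 15259 tested genes, 2630 and 2186 fell into these last classes, and 2390 and 3534 into the first pair. Without KO n3 replicate 4 the called genes numbered 308 and 131 in the last classes and 204 and 396 in the first pair. The knockout effect was the larger on n6 in 1041 genes, 74.9% of those called, against 54.3% of all tested genes. That share was 85.6% without the muscle-rich and B-cell-rich libraries, against 56.6% of all tested genes. Without KO n3 replicate 4 it was 51%, against 49.6% of all tested genes, so little excess over the background was left. The share was not computed with any other single library left out. It was 64.4% for the called genes on the TPM scale.

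Over all tested genes, 18.4% changed between n6 and n3 in WT (9.82% higher on n3 and 8.61% lower) and 26% in KO (15.8% higher and 10.3% lower). The 1389 genes were picked by the difference of differences, which is also the n3-minus-n6 change in KO minus that in WT. A called diet change in at least 1 genotype is therefore largely built in, and 91 of them had it in neither. Their counts cannot be read against the shares over all genes. Of the 189 genes higher in KO on both diets and more so on n6, the n3-minus-n6 change was called in WT for 170 and in KO for 80. Of the 319 genes lower in KO on both diets and more so on n6, it was called in WT for 261 and in KO for 67. Among the 802 genes with opposite signs, 376 of 495 and 230 of 307 were called between diets in KO, and 107 and 89 in WT. The order of the genotypes over all genes, 3972 called in KO and 2813 in WT, turned to 1215 and 2645 without the muscle-rich and B-cell-rich libraries, to 1184 and 2672 with B cell and muscle levels as covariates, to 307 and 2330 with gland levels added, and to 2048 and 2966 without KO n3 replicate 3. The signs of those 802 depend on the scaling, and on the TPM scale 462 of the called genes had opposite signs.

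**Figure D2:**
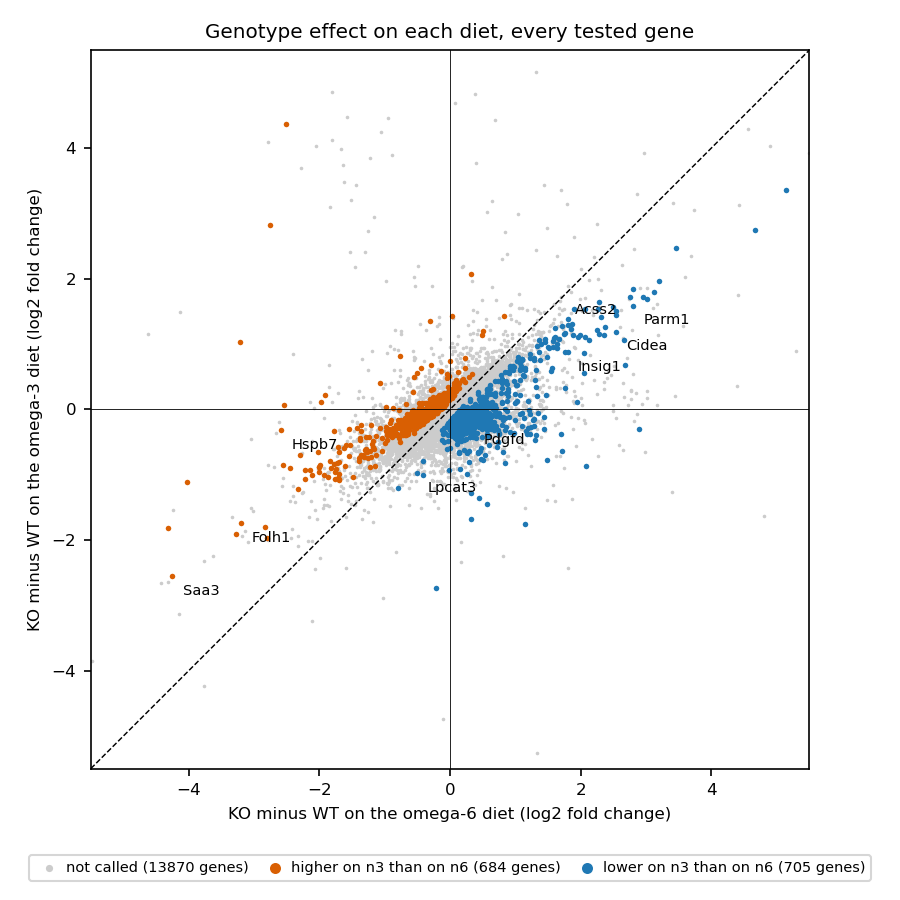
KO-minus-WT log2 fold change on the n6 diet (horizontal) and on the n3 diet (vertical) for every tested gene, with the 684 genes higher in the difference of differences in orange, the 705 lower in blue and the rest in grey; the dashed line marks equal effects and 30 genes lie outside the axes. Acss2, Insig1, Cidea and Parm1 lie right of the line on the side higher in KO, and Saa3, Folh1 and Hspb7 left of it on the side lower in KO.

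Most genes in the list of fatty acid synthesis were raised by the knockout on both diets, and 9 of them by less on n3. The list also holds regulators, Insig1 and Srebf1 among them. Of 20 listed genes, all tested, 9 were lower in the difference of differences and 0 higher, with a list median of -0.32 against 0.014 for all genes and 5 of the 20 values positive. The knockout raised 18 of the 20 on n6 and 19 on n3 at an edgeR adjusted p below 0.05 and lowered 0 on either diet, and the median knockout effect was 1.47 on n6 and 0.98 on n3. Between diets the list rose by a median of 0.60 in WT and 0.28 in KO. The count was 8 without the muscle-rich and B-cell-rich libraries and 9 without KO n3 replicate 4.

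Acss2, which makes acetyl-CoA from acetate in the cytosol, had the smallest p of these. It stood at 119, 114, 125 and 111 CPM in WT n6 and at 581, 640, 636 and 558 in KO n6. In WT n3 it stood at 346, 330, 334 and 302 CPM and in KO n3 at 832, 805, 776 and 739. No 2 groups overlapped. The knockout effect was 2.37 on n6 and 1.26 on n3, a difference of -1.10 (SE 0.112, edgeR adjusted p = 1.84e-05). WT rose by 1.49 between diets and KO by 0.38.

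Insig1 followed the same order of groups. Its levels were 228, 244, 281 and 235 CPM in WT n6, 876, 818, 867 and 883 in KO n6, 658, 604, 632 and 559 in WT n3, and 1084, 1222, 1128 and 1068 in KO n3. The knockout effect of 1.80 on n6 was 0.88 on n3, and the difference was -0.93 (SE 0.12, adjusted p = 0.000456 by edgeR). Slc25a1, the mitochondrial citrate carrier that supplies cytosolic acetyl-CoA, had an effect of 1.88 on n6 and 1.15 on n3. Its levels ran from 266 to 301 CPM in WT n6, from 985 to 1105 in KO n6, from 605 to 634 in WT n3 and from 1265 to 1529 in KO n3. The difference was -0.73 (SE 0.113, edgeR adjusted p = 0.00104).

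The other called members were Acacb (-0.72), Scd2 (-0.59), Elovl6 (-0.59), Me1 (-0.58), Fasn (-0.51) and Scd1 (-0.43). They encode an acetyl-CoA carboxylase, a pair of stearoyl-CoA desaturases, the elongase of palmitate, malic enzyme and fatty acid synthase. Among the members that did not pass were Acaca, at 1.58 on n6 and 1.32 on n3 (adjusted p = 0.0874), and Srebf1, which encodes SREBP-1 and had effects of 0.68 and 0.47. Genes of the pentose phosphate route, which supplies NADPH, lay on the other side of 0: G6pdx had an effect of 0.56 on n6 and 0.78 on n3, and Pgd 0.47 and 0.61, neither difference being called.

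In sterol synthesis fewer genes were called. Of 24 listed genes, all tested, 7 were lower in the difference of differences and 0 higher, and the median was -0.13, with 7 values positive. The knockout raised 19 of the 24 and lowered 2 on n6, and raised 20 and lowered 0 on n3, with median effects of 0.87 and 0.70. Nsdhl, an enzyme of sterol demethylation, stood at 45.1, 43.1, 47.7 and 40.6 CPM in WT n6 and at 131, 129, 137 and 128 in KO n6. It stood at 84.6, 82.4, 78.5 and 78.1 CPM in WT n3 and at 161, 169, 179 and 158 in KO n3, with no overlap between groups. Its difference was -0.53 (SE 0.0916, edgeR adjusted p = 0.00243). Lss, lanosterol synthase, differed by -0.50 (adjusted p = 0.00679) and Tm7sf2, a sterol reductase, by -0.54 (adjusted p = 0.00718). Cyp51, Fdps and Sqle were also called.

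Srebf2, which encodes a transcription factor of the pathway, had a knockout effect of -0.18 on n6 and -0.08 on n3, and the difference was not called. With the B cell, muscle and gland marker levels entered as covariates, 5 of the 9 lipogenic and 0 of the 7 sterol genes remained called, while both list medians stayed near their values, at -0.33 and -0.13.

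In the 16 called lipogenic and sterol genes the rise from n6 to n3 ran from 0.61 to 1.49 in WT and from 0.17 to 0.41 in KO, and their negative call fixes which of the genotypes has the larger rise. The knockout effects ran from 1.10 to 2.37 on n6 and from 0.62 to 1.54 on n3.

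**Figure D3:**
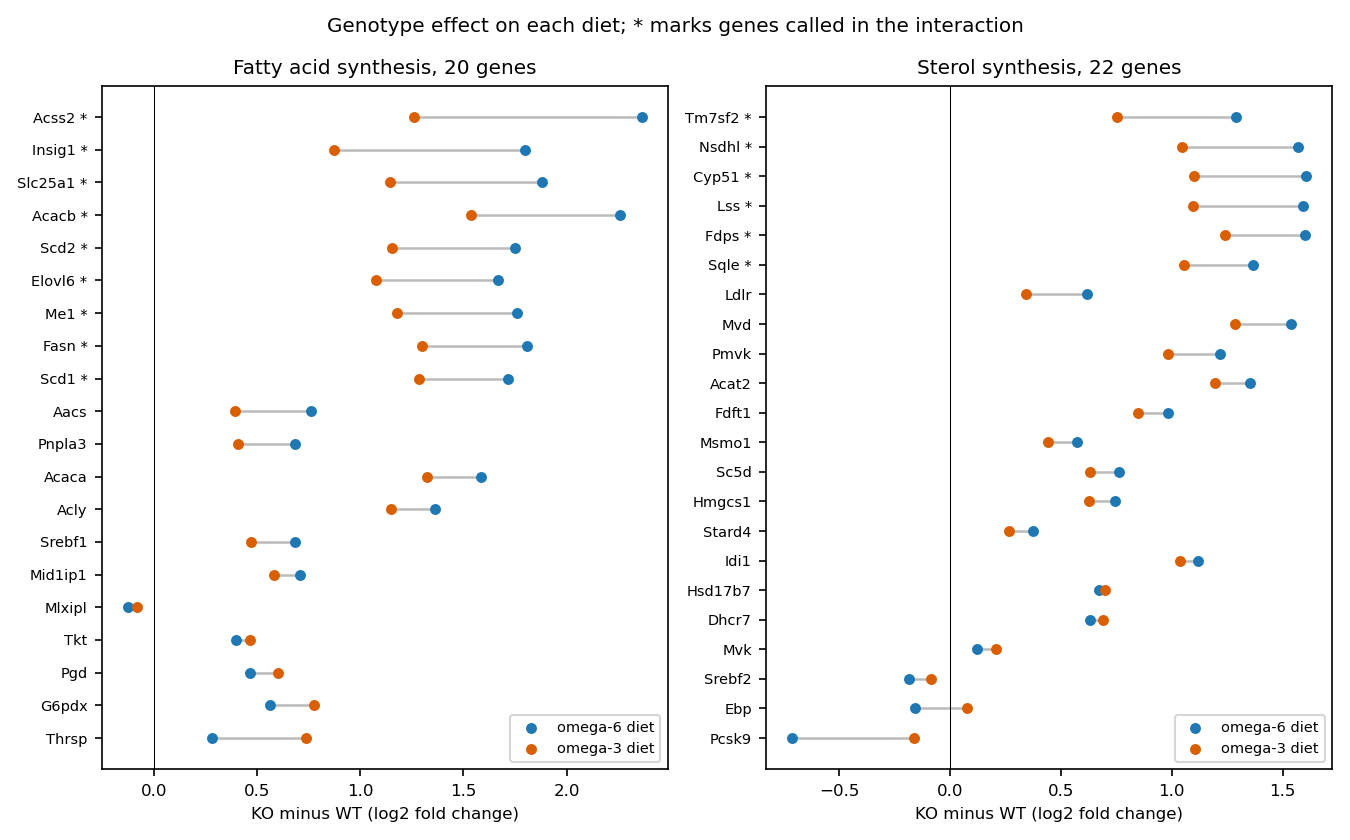
KO-minus-WT log2 fold change on the n6 diet (blue) and the n3 diet (orange), with genes ordered by the difference between them. The left panel holds the fatty acid synthesis list (20 genes, the regulators Insig1 and Srebf1 among them). The right panel holds the sterol synthesis list (22 of the 24 tested). All 15 starred genes, those called, have the orange point to the left of the blue one, which is what a negative difference means, and at the bottom of each panel the order turns in genes that were not called.

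The promoters of these genes were searched for short motifs linked to SREBP and its cofactor NF-Y. RefSeq promoter entries of the GRCm38.p6 build were found for 11 of the 16 called genes, and the 250 bases before the start of each were read on both strands. CCAAT, the letters bound by NF-Y, occurred in 10 of the 11 and in 16 of the 23 uncalled members of both lists with an entry. Of 27025 genes with an entry, 37.5% held it in the same length. A gene counted if any of its entries held the motif. Me1 had 0 copies in the entry at chr9:86695915-86696164 and 1 in that at chr9:86687278-86687527. The sterol element TCACNCCAC occurred in 0 of 11, in 2 of 23 and in 1.22% of all, and the E-box CACGTG in 2 of 11, 4 of 23 and 6.86%. A match is a description of letters and not a measured binding site. The promoters of the 3 lipogenic genes with the smallest p are shown 5′ to 3′ on the gene's strand, with CCAAT or its reverse complement ATTGG in capitals, for Acss2 at chr2:155517793-155518042, Insig1 at chr5:28071162-28071411 and Slc25a1 at chr16:17928220-17928469 (the last on the minus strand).
Acss2: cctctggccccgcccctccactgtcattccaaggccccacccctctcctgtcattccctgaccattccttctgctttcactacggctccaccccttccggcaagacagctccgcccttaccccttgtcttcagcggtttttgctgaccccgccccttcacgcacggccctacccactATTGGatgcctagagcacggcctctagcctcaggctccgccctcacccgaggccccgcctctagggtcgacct
Insig1: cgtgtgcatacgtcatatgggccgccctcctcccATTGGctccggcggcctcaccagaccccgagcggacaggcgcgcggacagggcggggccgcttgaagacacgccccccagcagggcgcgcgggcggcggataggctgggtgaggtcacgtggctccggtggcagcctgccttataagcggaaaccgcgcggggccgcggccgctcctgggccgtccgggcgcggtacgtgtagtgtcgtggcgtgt
Slc25a1: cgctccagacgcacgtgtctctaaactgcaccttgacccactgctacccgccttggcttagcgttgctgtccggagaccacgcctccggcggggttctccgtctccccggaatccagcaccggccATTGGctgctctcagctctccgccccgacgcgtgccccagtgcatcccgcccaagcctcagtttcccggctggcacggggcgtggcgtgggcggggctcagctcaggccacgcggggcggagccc

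The first base of the motif lies 73 bases before the start in Acss2, 216 in Insig1 and 125 in Slc25a1, so the position differs among genes that shared a direction. Fasn held 3 matches, at 90, 62 and 59 bases, of which those at 62 and 59 overlap in the stretch CCAATTGG, read on opposite strands.

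Other lipid genes followed in part. Cidea, a lipid droplet protein of energy-burning adipocytes, was at 3.58, 4.28, 3.70 and 7.78 CPM in WT n6 and at 25.8, 29.8, 29.5 and 26.5 in KO n6. On n3 it was at 14.7, 12.6, 13.7 and 16.2 CPM in WT and at 35.3, 40.3, 29.7 and 25.4 in KO, so the KO groups overlapped each other and the WT groups did not. Its difference was -1.34 (SE 0.284, edgeR adjusted p = 0.00813). Agpat2, which makes phosphatidic acid on the way to triglyceride, had effects of 1.64 on n6 and 1.00 on n3 (difference -0.65, adjusted p = 0.00147). Aqp7, the glycerol channel of the adipocyte, had 0.40 and 0.05 (difference -0.34, adjusted p = 0.00497), with WT n6 at 164 to 185 CPM and the other 3 groups at 193 to 230. Fabp5, a fatty acid carrier, had 0.86 and 0.43.

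By list, 4 of 19 lipid droplet and lipolysis genes were lower in the difference of differences and 1 higher (Plin3, 0.23). For triglyceride synthesis it was 2 of 17 lower and 1 higher, for fatty acid uptake 3 of 17 lower, and for elongation and desaturation of polyunsaturated fatty acids 3 of 13 lower. The last were Tecr (-0.36) and Hsd17b12 (-0.38), which serve every elongation cycle, and Elovl3 (-1.49). Elovl3 stood at 0.631 to 1.58 CPM in WT n6, and its call was lost in 15 of 28 other settings. The calls of Plin3 and Mogat2 were each lost in 9 of 28, of Gpat3 in 12 and of Acsl3 in 21. Gpihbp1, an uptake gene that is also an endothelial marker, lost its call in 4, the 3 TPM settings among them. Agpat2 and Aqp7 lost theirs in 0 and Fabp5 in 2. The shares called in these lists, in the order given, were 26.3%, 17.6%, 17.6% and 23.1%, against 9.1% of all tested genes.

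Ucp1, the uncoupling protein of brown and beige fat, was low throughout and was not called. It stood at 0.0179, 0.119, 0.0363 and 0.512 CPM in WT n6, at 0.573, 0.947, 0.589 and 0.327 in KO n6, at 0.889, 0.476, 0.701 and 1.11 in WT n3 and at 0.931, 0.674, 0.705 and 0.621 in KO n3. The WT n6 libraries spread widely, and the difference was -1.96 (SE 0.766, adjusted p = 0.107). Of 23 tested genes of thermogenic and beige fat 13% were called, against 9.1% of all tested genes: 2 were lower (Cidea and Elovl3) and 1 higher. The latter was Ckb, a creatine kinase, with effects of -0.52 on n6 and -0.04 on n3.

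Parm1 and Ptger3 were outside the lipid lists and shared the order of groups seen for Acss2. Parm1, a transmembrane mucin-like protein, stood at 17.8 to 21.3 CPM in WT n6, 125 to 142 in KO n6, 56.0 to 67.3 in WT n3 and 178 to 191 in KO n3 (difference -1.21, adjusted p = 0.000988). Ptger3, a receptor for prostaglandin E2, had effects of 1.58 on n6 and 0.95 on n3 (difference -0.63, adjusted p = 0.000945).

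The 319 called genes that were lower in KO on both diets and more so on n6 included several with large differences. Saa3, an acute phase apolipoprotein made by fat, was at 49.2, 50.1, 50.8 and 24.1 CPM in WT n6 and at 2.87, 2.19, 1.77 and 2.27 in KO n6. It was at 12.1, 18.4, 13.1 and 12.6 CPM in WT n3 and at 2.45, 2.23, 2.00 and 2.84 in KO n3. The KO libraries of both diets overlapped and WT n3 lay between. The knockout effect was -4.25 on n6 and -2.56 on n3, a difference of 1.70 (SE 0.333, edgeR adjusted p = 0.00556).

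Hspb7, a small heat shock protein of heart and muscle, was at 29.4, 34.1, 18.3 and 12.7 CPM in WT n6. The other 12 libraries held 3.06 to 6.61 CPM, KO n6 replicate 1 with its muscle transcripts among them at 5.12. The effect was -2.59 on n6 and -0.32 on n3, the second not called, and the difference was 2.27 (SE 0.388, edgeR adjusted p = 0.00268). This was the largest positive difference among abundant annotated genes, where the mean log2 CPM was at least 1.

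Ptx3, a soluble pattern recognition protein, differed by 1.60 (adjusted p = 0.0048), with 5.64 to 9.16 CPM in WT n6 and 1.06 to 2.55 in the other groups. Folh1, a carboxypeptidase that releases glutamate, differed by 1.46, its effect being -3.20 on n6 and -1.74 on n3. Prodh, which begins proline breakdown, differed by 1.22, with effects of -2.14 and -0.92.

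Milder cases were more precise. Leptin (Lep), the hormone of the filled adipocyte, stood at 5333, 5297, 5112 and 4807 CPM in WT n6 and at 2610, 2479, 2883 and 2613 in KO n6. It stood at 3562, 4418, 3797 and 3659 CPM in WT n3 and at 2973, 2862, 3398 and 2518 in KO n3. WT fell between diets by 0.41 and the KO value was 0.15 higher on n3, a change that was not called. The knockout effect was -0.96 on n6 and -0.39 on n3 (difference 0.56, SE 0.108, edgeR adjusted p = 0.0043). Cfb, complement factor B, differed by 0.45, Rab29, a GTPase of the lysosome and Golgi, by 0.63, and Sardh, sarcosine dehydrogenase, by 0.48 (adjusted p of 0.00611, 0.000945 and 0.000945).

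In the inflammatory lists the share of genes called is set against 9.1% of all tested genes (4.48% higher and 4.62% lower). It was 10% for acute phase and complement, 9.09% for MHC class II, 4.17% for cytokines and chemokines and 0% for macrophage markers. Of 20 acute phase and complement genes, 2 were higher in the difference of differences (Saa3 and Cfb), of 24 cytokines and chemokines 1 was (Ccl2), and of 15 macrophage markers 0 were (edgeR; 1 at an unadjusted p below 0.05, and 0 by DESeq2), with medians of 0.18, 0.04 and 0.084. Positive values numbered 15 of 20, 13 of 24 and 14 of 15. The call of Ccl2 was lost in 19 of 28 other settings. For 11 genes of MHC class II the median was 0.22 and 1 was higher. Among 32 extracellular matrix genes 9.38% were called and the median was 0.20. Of these genes 2 were higher (Col6a2 and Col5a3) and 1 lower (Tnc, tenascin C, -0.75). Of the 32, 26 values were positive, 14 had an unadjusted p below 0.05, and DESeq2 called 9. The calls of Col6a2 and Col5a3 were lost in 7 of 28 and 20 of 27 other settings.

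**Figure D4:**
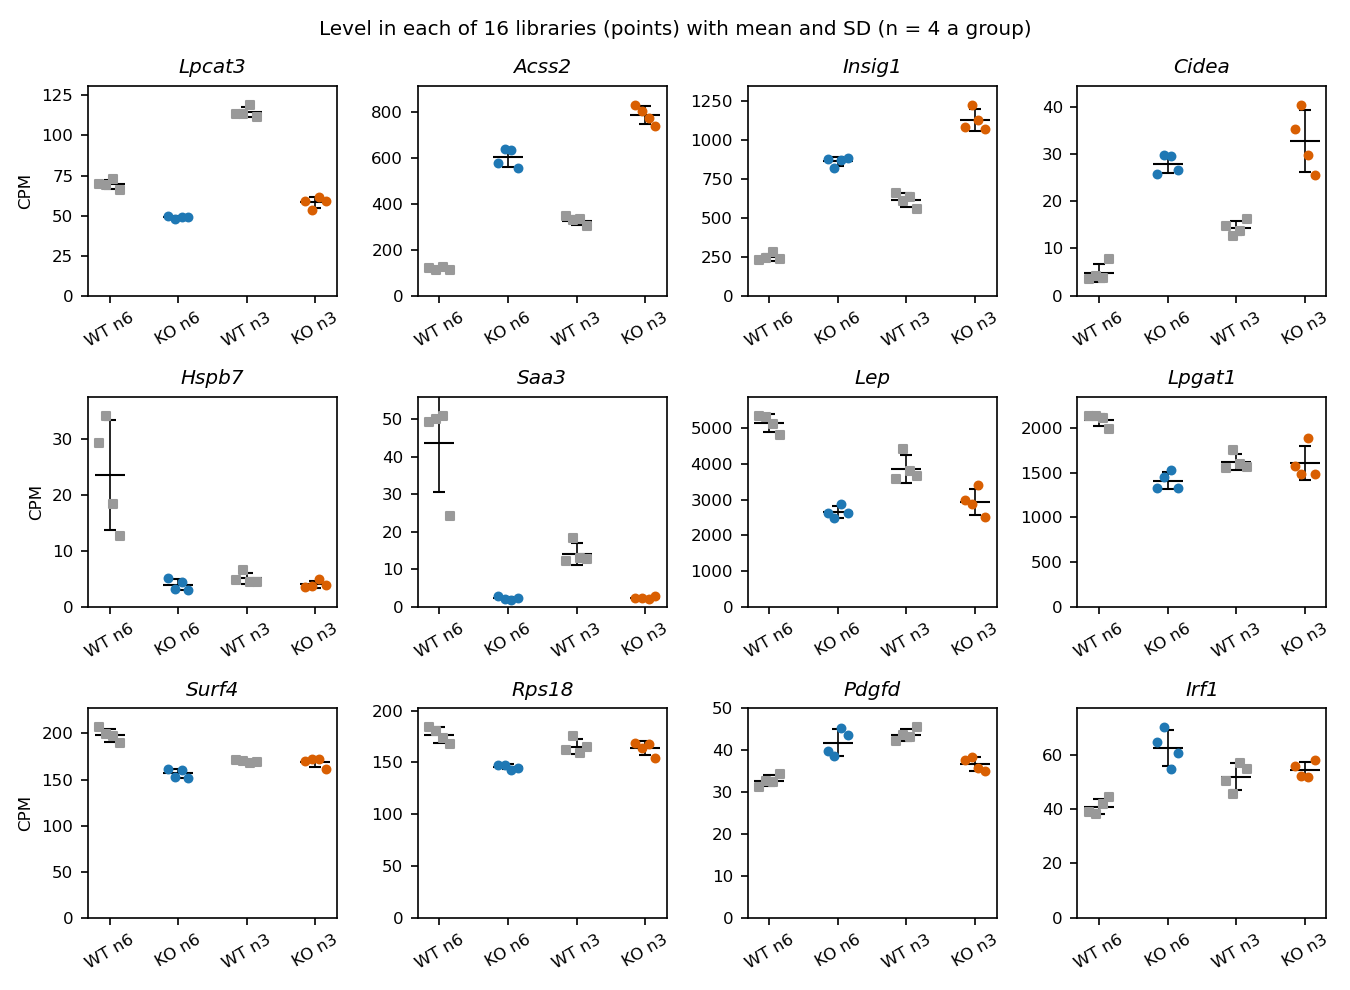
Level in CPM (vertical axes, linear from 0) of 12 genes in each of the 16 libraries (points) with the mean and SD of each group of 4. In the top row WT n6 is the lowest group of Acss2, Insig1 and Cidea, in Hspb7 and Saa3 it is the highest, and in Pdgfd the order of KO and WT turns between diets.

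Phospholipid remodelling, the process LPCAT3 serves, had 2 of 17 genes higher and 4 lower in the difference of differences. Pla2g5, a secreted phospholipase A2, was at 7.29, 9.18, 7.08 and 7.29 CPM in WT n6 and at 0.680, 0.854, 0.748 and 0.878 in KO n6. It was at 2.48, 3.07, 2.99 and 2.66 CPM in WT n3 and at 0.613, 0.698, 1.07 and 0.598 in KO n3. Its effect was -3.28 on n6 and -1.91 on n3, a difference of 1.37 (SE 0.246, adjusted p = 0.00296 by edgeR). Lpgat1, a lysophosphatidylglycerol acyltransferase, stood at 1984 to 2132 CPM in WT n6, 1327 to 1528 in KO n6, 1552 to 1748 in WT n3 and 1484 to 1888 in KO n3. The groups on n3 overlapped, the effects were -0.57 and -0.01, and the difference was 0.56 (adjusted p = 0.00159).

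The 4 lower genes were Lpcat3 itself, Lpcat4 (effects 0.25 on n6 and -0.35 on n3), Mboat2 (0.34 and -0.29) and Tmem86a, a lysoplasmalogenase (0.90 and 0.56). Lpcat4 and Mboat2 are acyltransferases of lysophospholipids. Mboat7, which attaches arachidonic acid to phosphatidylinositol, had 0.03 and 0.18 and was not called (adjusted p = 0.126). In the synthesis of phosphatidylcholine and phosphatidylethanolamine 2 of 15 tested genes were higher, Pcyt1a (0.20) and Selenoi (0.23), and 0 lower. The share called was 13.3%, against 9.1% of all tested genes. The calls of Pcyt1a and Selenoi were lost in 4 and 6 of 28 other settings.

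Cytosolic ribosomal protein genes were lower in KO on n6 by a small amount and, relative to the bulk of genes, near WT on n3. Of 36 listed genes, 19 were higher in the difference of differences and 0 lower, with a median of 0.20, and 35 of the 36 values were positive. The median knockout effect was -0.18 on n6, where 30 genes were lower, and 0.02 on n3, where 0 were lower and 3 higher. Between diets the list changed by a median of -0.0041 in WT and 0.21 in KO, with 33 genes higher in KO. On the TPM scale the knockout median was -0.39 on n6 and -0.21 on n3, so the nearness to WT on n3 holds only relative to other genes, while the difference stayed at 0.17 with 21 called.

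Rps18, a protein of the small subunit, shows the size of these shifts. It stood at 184, 181, 173 and 168 CPM in WT n6 and at 147, 148, 143 and 145 in KO n6. On n3 it stood at 162, 176, 159 and 165 CPM in WT and at 169, 164, 168 and 154 in KO. Within a diet the genotypes overlapped on n3 only, and the difference was 0.26 (SE 0.0533, edgeR adjusted p = 0.00598). Rpl13 and Rplp0, proteins of the large subunit, each differed by 0.25. The list count was 10 without the muscle-rich and B-cell-rich libraries, 31 without KO n3 replicate 4, and 0 with the B cell, muscle and gland levels as covariates, where the median was 0.20. Proteins of the mitochondrial ribosome had a median of 0.10, and 0 of 35 were called by edgeR or by DESeq2, with 6 at an unadjusted p below 0.05 and 32 of the values positive.

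Genes of the secretory pathway were among those with the smallest p. Surf4, a cargo receptor that takes lipoproteins and other proteins out of the endoplasmic reticulum, was at 207, 199, 197 and 189 CPM in WT n6 and at 162, 152, 160 and 152 in KO n6. It was at 172, 170, 168 and 169 CPM in WT n3 and at 170, 172, 172 and 161 in KO n3, where the genotypes overlapped. The effect was -0.34 on n6 and -0.01 on n3, a difference of 0.33 (SE 0.0487, edgeR adjusted p = 0.00104). Sar1a, the GTPase that starts the COPII coat, differed by 0.33, with effects of -0.31 and 0.02. Ap1s1, a subunit of the clathrin adaptor of the Golgi, differed by 0.40, with effects of -0.25 and 0.15. Ykt6, a SNARE of vesicle fusion, differed by 0.23: WT n6, KO n6 and WT n3 held 92.3 to 103 CPM and KO n3 110 to 118. On the TPM scale Sar1a, Ap1s1 and Surf4 were lower in KO on both diets and less so on n3. No secretory list was examined as a whole. Of 22 genes of the unfolded protein response 1 was higher and 1 lower, with a median of 0.045. The share called, 9.09%, was that of all tested genes (9.1%).

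In some genes the knockout effect turned its sign between diets. It did so with both effects called in 80 of the 1389, and in 60 of the called genes on the TPM scale. Pdgfd, a growth factor of the PDGF family, had the smallest p of the genes higher in KO on n6 and lower on n3. It stood at 31.2, 32.6, 32.4 and 34.4 CPM in WT n6 and at 39.8, 38.6, 45.3 and 43.5 in KO n6. It stood at 42.2, 43.7, 43.1 and 45.5 CPM in WT n3 and at 37.7, 38.4, 35.8 and 35 in KO n3. KO lay above WT on n6 and below it on n3 without overlap. The effects were 0.36 and -0.25, and the difference was -0.60 (SE 0.0758, edgeR adjusted p = 0.000375). On the TPM scale they were 0.12 and -0.46.

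Cyp4b1, a cytochrome P450 of fatty acid hydroxylation, had effects of 0.55 and -0.24, Cldn15, a tight junction protein, 0.20 and -0.26, and Unc45b, a chaperone of myosin, 0.46 and -0.25. Their differences were -0.79, -0.46 and -0.71, with adjusted p of 0.00104, 0.00111 and 0.00111. In KO n3 the 4 libraries of Cyp4b1 held 73.1, 74.5, 88.2 and 97.1 CPM, the last, replicate 4, inside the WT n3 range of 92.2 to 104. In the reverse direction Gtf3a, the transcription factor of 5S ribosomal RNA genes, had -0.20 on n6 and 0.18 on n3 (difference 0.38, adjusted p = 0.00104). On the TPM scale the n3 effects of Gtf3a and Ap1s1 were -0.04 and -0.06, so their turn of sign holds only relative to other genes.

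With all 16 libraries, larger effects on n3 than on n6 were fewer, at 348 genes. Cdo1, which oxidises cysteine on the way to taurine, stood at 707, 748, 650 and 706 CPM in WT n6 and at 749, 779, 801 and 735 in KO n6. It stood at 633, 663, 604 and 599 CPM in WT n3 and at 891, 950, 1030 and 849 in KO n3, the highest group. Its effects were 0.12, not called, and 0.57, a difference of 0.45 (SE 0.0861, edgeR adjusted p = 0.00436). Mfsd12, a lysosomal cysteine transporter, had 0.49 and 1.14, and Dhx32, a helicase-like protein, 0.09 and 0.44. Among genes lowered more on n3, Sorbs2, an adaptor of the actin cytoskeleton, had -0.80 on n6 and -1.20 on n3. Fam83d, a protein of the mitotic spindle, had -0.41 and -1.0, and Fbln5, an elastic fibre protein, -0.12 and -0.47. Mup19, a major urinary protein, had 0.33 and 2.08, but belongs to a family of near-identical genes among which reads can be split.

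Interferon response genes leaned one way as a list. Of 24 tested, 7 were lower in the difference of differences and 0 higher, all 24 values were negative, and the median was -0.46. The median knockout effect was 0.43 on n6, where 16 genes were higher in KO, and -0.06 on n3, where 1 was. Irf1, a transcription factor of that response, was at 39.1, 38.3, 42.0 and 44.3 CPM in WT n6 and at 64.8, 70.2, 54.6 and 60.8 in KO n6. It was at 50.5, 45.6, 56.8 and 54.7 CPM in WT n3 and at 56.0, 52.1, 51.9 and 58.0 in KO n3. Within a diet the genotypes overlapped on n3 only. Its difference was -0.54 (SE 0.11, edgeR adjusted p = 0.00598). Cxcl9, a chemokine for T cells, had effects of 1.55 and 0.58, and its call was lost in the 3 TPM settings and with 3 marker covariates. The list count was 2 without the muscle-rich and B-cell-rich libraries, where the median was -0.34, and 9 without KO n3 replicate 4.

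Some marker genes of T and NK cells were also lower. Of 17 T and NK cell markers, 5 were lower (Nkg7, Cd28, Cd8a, Ncr1 and Cd3d) and 0 higher, with a median of -1.07. All 17 were above 0 counts in each group, and their summed level was 29.1 to 47.1 CPM in WT n6, 38.0 to 65.9 in KO n6, 37.0 to 49.0 in WT n3 and 42.7 to 53.7 in KO n3. Cd8a was at 1.61, 3.97, 0.838 and 1.96 CPM in KO n6, the highest being replicate 2, the library rich in B cell transcripts. Without the muscle-rich and B-cell-rich libraries 0 of the 17 were called and the median was -0.85, and limma on TPM called 1. Of 12 B cell markers 0 were called by edgeR or DESeq2 and 3 had an unadjusted p below 0.05, with a median of -2.24. The part of these cells in the interferon values was not tested.

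Endothelial markers were lower in 3 of the 4 KO n3 libraries, at a summed 1214 to 1298 CPM, than in any WT n6, KO n6 or WT n3 library, which held 1359 to 1990. Of 12 markers 5 were lower in the difference of differences (Gpihbp1, Pecam1, Tek, Kdr and Cdh5) and 0 higher, with a median of -0.45. Pecam1, an adhesion molecule of endothelium, stood at 203, 196, 190 and 263 CPM in KO n3, the last in replicate 4, and at 310 to 326 in KO n6. In WT it stood at 251 to 288 CPM on n6 and 227 to 305 on n3. The list count was 11 without KO n3 replicate 4, 1 without the muscle-rich and B-cell-rich libraries, and 0 on the TPM scale, where the median was -0.47.

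Erythroid genes were lower in WT n6 than in the other groups. Of 7 tested, 4 were lower in the difference of differences (Hba-a1, Hba-a2, Hbb-bs and Alas2) and 0 higher, with a median of -0.57. Hba-a2, an alpha globin gene, was at 318, 313, 349 and 292 CPM in WT n6, 423, 433, 453 and 440 in KO n6, 450, 563, 574 and 431 in WT n3, and 451, 400, 521 and 399 in KO n3. Its difference was -0.65 (SE 0.141, edgeR adjusted p = 0.00913). Hba-a1 and Hba-a2 are near-identical, and how reads were shared between them is not given in the sources used here. The summed erythroid level was 925 to 1146 CPM in WT n6 and 1307 to 1796 in the other 3 groups, and the part of blood in other genes' values was not tested.

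In the list of defence against lipid peroxidation 4 of 19 genes were higher and 0 lower, with a median of 0.12. Ftl1, the ferritin light chain, stood at 1613, 1492, 1480 and 1230 CPM in WT n6, 1176, 1011, 976 and 1102 in KO n6, 1144, 1235, 1132 and 1215 in WT n3, and 1309, 1150, 1217 and 1148 in KO n3. The effect was -0.45 on n6 and 0.03 on n3 (difference 0.48, SE 0.0995, edgeR adjusted p = 0.00672). Fth1, the heavy chain, had -0.32 and -0.05. Tfrc, the transferrin receptor, had 0.18 and 0.46. The calls of Fth1 and Tfrc were lost in 7 of 27 and 12 of 28 other settings. The 4th gene was Sod2. Ferritin genes have processed copies in the genome that can share reads.

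Mitochondrial genes were taken by the genome that encodes them. Of 13 transcripts of the mitochondrial genome 3 were lower in the difference of differences and 0 higher, with a median of -0.33 and knockout medians of 1.02 on n6 and 0.66 on n3. The share called was 23.1%, against 9.1% of all tested genes. By edgeR 8 had an unadjusted p below 0.05, and DESeq2 called 4. The calls of mt-Nd4l and mt-Nd1 were lost in 9 of 28 and 16 of 27 other settings, and that of mt-Nd2 in 1 of 27. mt-Nd2, a subunit of complex I, stood at 2579 to 2847 CPM in WT n6, 6844 to 7472 in KO n6, 4262 to 4786 in WT n3 and 7537 to 8952 in KO n3 (difference -0.49, adjusted p = 0.00497). Of 45 nuclear genes of oxidative phosphorylation 0 were called by edgeR or DESeq2 and 1 had an unadjusted p below 0.05, and their knockout medians were 0.40 on n6 and 0.45 on n3. Of 20 genes of branched-chain amino acid breakdown 0 were called by edgeR and 1 by DESeq2, with 4 at an unadjusted p below 0.05, and of 19 clock genes 0 were called by either tool, also with 4.

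**Figure D5:**
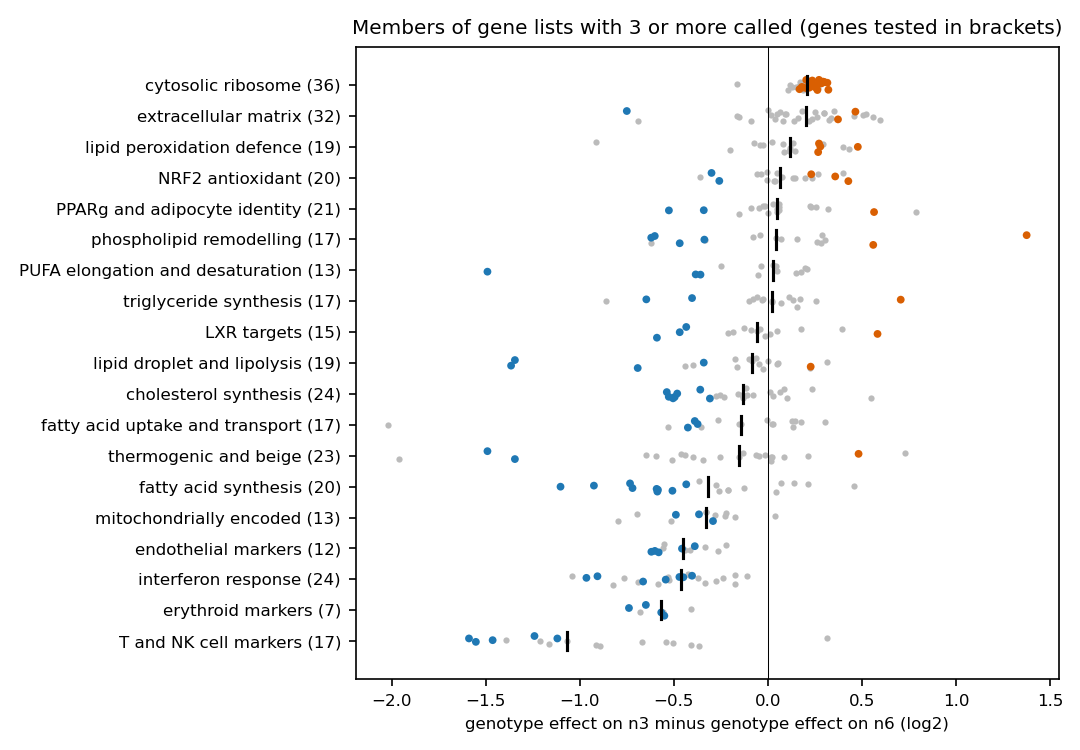
Difference of differences (log2, horizontal) for every tested member of the 19 gene lists with 3 or more called genes, with genes called higher in orange, called lower in blue and uncalled in grey, and a black bar at each list's median. The ribosomal list is the highest by median, at 0.20, and the T and NK cell list the lowest, at -1.07.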

How the data were processed

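Gene expression was measured by paired-end sequencing of polyA RNA from whole iWAT. The deposited table of estimated counts per gene, and a table of TPM (abundance scaled for transcript length and library total) by the authors, were made with fastp 0.23.2 and Salmon against mm10, per the submitters' processing notes; which release and options of Salmon, and which annotation, were used is not given in the sources used here. Estimated counts were rounded to whole numbers. Genes were kept with filterByExpr (minimum count 10, minimum total 15), which held 99.98% of counts. The model of edgeR 4.0.16 (R 4.3.3; TMM scaling, robust quasi-likelihood F test) had 1 coefficient per group over all 24 libraries and 18 residual degrees of freedom, and the difference of differences was tested as 1 contrast with Benjamini-Hochberg adjustment over all 15259 genes and a threshold of 0.05. Levels are TMM-scaled CPM, given with SDs in the plots of levels by library. The library totals of 43599424 to 62128983 estimated counts set the precision of each value.

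Symbols were matched to GENCODE M21 for 34950 of 35727 genes; positions are GRCm38. Alternatives were RLE scaling, no filter, only the 16 libraries, a block on replicate number, marker levels as covariates, libraries left out, DESeq2 1.42.0, and limma 3.58.1 on log2(TPM + 1) or log2(TPM + 0.1). The scripts were tested on simulated data. The comparison and the gene lists were chosen with earlier results of these data known. Genes were named by rule: Lpcat3 and Ucp1, the largest differences and smallest p among annotated genes whose mean log2 CPM reached 1, 4 genes from each class of knockout effects, and up to 3 called members of each list. Other called list members, with the uncalled ones named beside them, were added after their values were seen. Some genes are not reported here by name.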

Additional observations from a re-analysis of the deposited data

Results flagged for a closer look

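The knockout effect differed between diets, by the test of the difference itself, for 1389 genes, and turned its sign with both effects called for 80.

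Of 292 groups of 4 libraries examined over 73 genes, 13 held a library far from the other 3. That share is no larger than the 5% or so that chance gives.
In WT n6, replicate 4 held Saa3 at 24.1 CPM against 49.2 to 50.8 in the others, Cidea at 7.78 against 3.58 to 4.28 and Aqp7 at 185 against 164 to 167, and replicate 2 held Pla2g5 at 9.18 against 7.08 to 7.29. In WT n3, replicate 2 held Saa3 at 18.4 CPM against 12.1 to 13.1, and replicate 4 held Lss at 90.3 against 107 to 108. In KO n6, replicate 3 held Elovl3 at 2.99 CPM against 4.25 to 4.46. In KO n3, replicate 3 held Folh1 at 5.46 CPM against 2.77 to 3.15, Cck at 4.76 against 2.28 to 2.61 and Mup19 at 10.035 against 4.37 to 4.61. Replicate 4 of KO n3 held Surf4 at 161 CPM against 170 to 172, replicate 2 held Nkg7 at 1.93 against 1.05 to 1.16, and replicate 1 held Fam83d at 6.63 against 7.84 to 8.02.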

How the results depend on the processing

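The number of genes called in the difference of differences, 1389, was between 939 and 1930 with RLE scaling, no filter on low counts, only the 16 libraries, without the 100 most abundant genes, a replicate block or DESeq2. It was 438 with B cell and muscle marker levels as covariates, 103 with gland markers added, and 570 without the 3 libraries rich in B cell or muscle transcripts. On TPM it was 860 (pseudocount 1), 829 (pseudocount 0.1) and 644 (pseudocount 1 without a filter, 394 higher and 250 lower). Leaving out 1 library at a time gave 730 to 2693. It moved by over 1.5 times without WT n6 replicate 1 or 2 (730 and 735) or WT n3 replicate 1, 3 or 4 (825, 771 and 906). The same held without KO n3 replicate 1 or 3 (880 and 823) and without KO n3 replicate 4 (2693). The share of higher calls was 49.2% in the main fit. It was 38.3% to 43.1% with any 1 WT library of the 16 left out, and 47.1% to 52.1% with any 1 KO library left out. With no filter on low counts the share was 39.9%, and on TPM it ran from 54.8% to 61.2%. The genes called n3 against n6 in KO, 3972, were 1184, 307 and 1215 under the 2 covariate fits and without those libraries, and 2048 (without KO n3 replicate 3) to 5280 with 1 library left out. The cause was not tested. All 1389 genes kept their direction in those fits on counts that leave out a library or add covariates, and 1376 of 1383 did on log2(TPM + 1). No named gene reversed. In the fit with the replicate block 1338 genes were called, 1241 of them shared. Same-numbered libraries correlated above 0.1 in 2 of 24 pairs (-0.186 to 0.128). Libraries of different numbers were not compared, so these values cannot decide whether the numbers pair the samples. Depth limits genes such as Ucp1, under 1.2 CPM in every library.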

Other observations

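Several genes with large or precise differences lie outside the groups described. Tmem132b, a membrane protein best known from brain, stood at 1.02 to 2.17 CPM in WT n6, 2.33 to 12.1 in KO n6, 5.61 to 20.5 in WT n3 and 4.65 to 9.02 in KO n3. Its difference of differences was -2.95 (SE 0.661, edgeR adjusted p = 0.0112), with wide spread within groups. Cck, a gut hormone and neuropeptide, stood at 0.407 to 1.04 CPM in WT n6, 2.15 to 3.14 in KO n6, 3.49 to 5.79 in WT n3 and 2.28 to 4.76 in KO n3, a difference of -2.35 (adjusted p = 0.0271) that was lost in 9 of 28 other settings. Nrg4, a growth factor secreted by brown and beige adipocytes, had a knockout effect of 0.64 on n6 and 0.11 on n3 (difference -0.53, adjusted p = 0.0223).

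All 21 tested proliferation genes had a positive difference, with a median of 0.28, and 3 had an unadjusted p below 0.05 by edgeR. The share called was 4.76%, against 9.1% of all tested genes, and 1 gene was called. This was Pcna, the sliding clamp of DNA replication, at 48.1 to 56.4 CPM in WT n6, 38.1 to 39.9 in KO n6, 41.2 to 43.2 in WT n3 and 37.0 to 41.7 in KO n3 (difference 0.31, adjusted p = 0.00397). The median knockout effect of the list was -0.47 on n6 and -0.24 on n3. Of 20 antioxidant genes linked to NRF2, 3 were higher and 2 lower, and the 3 included Gstm1, a glutathione transferase, with effects of -0.54 and -0.12 (difference 0.43, adjusted p = 0.0081). Of 11 markers of lipid-associated macrophages 2 were higher, Lgals3 and Cd63, with a median of 0.21, and their calls were lost in 16 and 18 of 28 other settings.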
